A study of Mus musculus with 32 samples.

Results

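The genes described here are a list of 32 that carry fatty acids into liver cells, coat and shape lipid droplets, or hydrolyse stored and circulating lipid. Members were chosen by name: a probe belonged if it was no control and its gene name in the scanner files was on the list. Of the 32 names 31 were found, on 44 probes of the 55681 non-control probes, and 30 genes entered the tests among 21691 genes in all. Cav1, a coat protein of caveolae, was well above background on too few arrays, and Ces3 was not matched by name and is not analysed here. Expression was measured with 32 one-colour arrays, 1 for each liver, of male C57/BL6 mice, in 8 groups of 4 independent livers. At baseline the groups were a standard diet for 3 weeks, a methionine and choline deficient (MCD) diet for 3 weeks, a standard diet with a dual agonist of GLP1R and GCGR, the receptors of glucagon-like peptide 1 and glucagon, for 2 weeks, and the MCD diet for 3 weeks with the agonist over the last 2 of them. The agonist dose was 4.4 mg/kg/day, given every 2 days. The other 4 groups had these diets and treatments (the titles of the standard diet group with agonist say chow, its group label standard diet), then a 70% partial hepatectomy, and were sampled 2 weeks later with diet and agonist continued. Livers before and after hepatectomy therefore differ also in the length of diet and treatment, and the labels give no sham operation, no vehicle for the mice without agonist and no age.

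Hepatocytes take up fatty acids through membrane transporters and receptors such as CD36, the FATP family (Slc27a genes) and lipoprotein receptors, and cytosolic fatty acid binding proteins (Fabp genes) carry them onward. Surplus fatty acid is esterified and stored in droplets whose surface holds perilipins (Plin genes) and CIDE proteins, and lipolysis begins with the lipase ATGL, the product of Pnpla2, its activator Abhd5 and its inhibitor G0s2. The MCD diet is a widely used model of fatty and inflamed liver, in which export of lipid as very low density lipoprotein is impaired.

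Values are log2 signals relative to the 75th percentile of the array, so 0 is the level of the probe at that percentile and a difference of 1 is 2-fold. Changes are differences of group means ± SE from 1 limma fit over all 8 groups, with n = 4 livers a group. "Rose" and "fell" are used where the Benjamini-Hochberg adjusted p over all 21691 genes was under 0.05. The share of probes called well above background ran from 43.1% to 69.1% by array, and the number of arrays limits the precision. Each of the 4 slides held 2 groups, 1 in each row. The diet at baseline and the agonist after hepatectomy were compared within a slide, where group cannot be told apart from row. The other contrasts run between slides, and group cannot be told apart from slide there, except for the interaction of diet and agonist, in which a constant slide shift cancels. The sets before and after hepatectomy were read with different scanners. In the deposited table of processed values, 16 of 32 columns match the array of another group best, with MCD diet and standard diet plus agonist exchanged. Which source carries the right labels was not tested, and the groups are named throughout as the scanner files' labels have them. With the table's columns as labelled, 4, 7, 0 and 0 members passed in the 4 diet comparisons and 12, 10, 12 and 12 in the 4 agonist comparisons (baseline first), so what is called diet here would be called agonist under the table's labels. The summed level of 8 hepatocyte markers lay between 11.12 and 12.67 over all arrays, and at baseline between 12.12 and 12.67 on standard diet and between 11.59 and 11.81 on MCD diet. Of 7 adipocyte markers, Adipoq, Lep, Plin1 and Retn did not pass the filter on dim probes, and Fabp4, Cfd and Lipe were tested. Of these 3, 1 fell with the diet at baseline, beside 26.0% of all genes called. With the agonist on MCD diet at baseline 1 rose (13.3%), and 1 rose in the interaction at baseline (11.1%). The summed level of the 7 lay between 1.24 and 3.81 over all arrays. The part of adipocytes was not tested. After hepatectomy, liver 1 on standard diet and liver 4 on standard diet with agonist stood apart from the rest of their groups. Their summed levels of 9 recruited and lipid-associated macrophage markers reached 7.69 and 6.88, against group medians of 5.07 and 4.95. Their summed cholangiocyte markers were high as well, at 5.70 and 4.93 against group medians of 2.77 and 2.20. Calls lost or gained without both are given with and without them, as are some other changes. The counts of marker genes were made with both livers.

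The diet comparison asks how these genes differ in the liver that the MCD diet makes fatty. At baseline 7 members rose, 7 fell and 16 did not pass, beside 26.0% of all genes called. With the agonist 8 rose, 4 fell and 18 did not pass (15.2% of all genes). After hepatectomy 10 rose, 4 fell and 16 did not pass (11.5% of all genes), and with the agonist after hepatectomy 6 rose, 3 fell and 21 did not pass (8.23% of all genes). The median change of the members was 0.06, 0.08, 0.24 and 0.26 in that order, beside -0.13, 0.03, -0.04 and 0.00 over all genes. With Lipg at its lower bound the last of the 4 is 0.22. Scaling to the array median instead moved the median of all genes at baseline from -0.13 to 0.23 and the members' split from 7 up and 7 down to 8 up and 4 down. Beside the baseline falls described below, of Slc27a2, Lipc, Cideb and Lrp1 among others, 2 of 8 hepatocyte markers (Apoa1 and Serpina1a) fell with the diet, with a median of -0.70 over the 8. The summed stellate cell markers were 6.22 to 6.79 on standard diet and 7.68 to 8.66 on MCD diet, with 2 of 8 called. Both counts of 2 of 8 stand beside 26.0% of all genes called at baseline. The part of either cell type in these results was not tested.

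The largest rises were those of Cidec and Mfsd2a, in all 4 diet comparisons. Cidec encodes a CIDE protein that sits where droplets touch and lets lipid pass into the larger one. On probe A_55_P1969131 (chr6:113374630-113374689, mm9) the standard diet livers at baseline read -0.26, -0.74, -0.83 and -0.50 and the MCD livers 3.20, 5.03, 2.60 and 3.67. The lowest MCD liver lay well above the highest standard diet liver. After hepatectomy the standard diet livers read 0.06, -1.75, -2.80 and -0.38 and the MCD livers 4.17, 5.14, 2.93 and 5.04. The change was 4.21 ± 0.64 at baseline (18.5-fold, adjusted p = 3.5e-05) and 5.53 ± 0.64 after hepatectomy (46.3-fold, adjusted p = 2.0e-06). With the agonist it was 3.65 ± 0.64 and 5.69 ± 0.64. A second, dimmer probe of Cidec rose in all 4 as well, by 1.90 to 4.14. At baseline that probe was well above background on 1 of 4 standard diet arrays, and on 2 of 4 with agonist. Cidea, a related gene, was dim, between -5.71 and 0.66, and did not pass in any comparison. Its 2 highest arrays were the livers that stand apart, at 0.66 and -0.72.

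Mfsd2a encodes a sodium-dependent transporter that takes up lysophosphatidylcholine carrying long-chain fatty acids such as docosahexaenoic acid. On probe A_51_P279437 (chr4:122624182-122624241, mm9) the standard diet livers at baseline read 3.02, 3.11, 1.51 and 2.58 and the MCD livers 6.36, 7.10, 6.86 and 6.71. The change was 4.20 ± 0.64 (18.4-fold, adjusted p = 3.1e-05). After hepatectomy the standard diet livers ranged widely, at 2.97, -0.86, 0.48 and 1.89, while the MCD livers lay close together at 6.58, 6.95, 6.90 and 7.68. This gave the smallest adjusted p of any member (5.91 ± 0.64, 60.1-fold, adjusted p = 6.3e-07). The change was 5.25 without standard diet liver 2, and 6.53 without standard diet liver 1 or without both livers that stand apart. With the agonist the standard diet livers read 2.84, 3.83, 1.08 and 2.64 at baseline and 2.21, 1.96, 2.47 and 4.54 after hepatectomy. The matching MCD livers read 6.71, 6.01, 7.13 and 5.60, then 5.48, 7.05, 7.30 and 6.81. The groups did not overlap in either case, and the changes were 3.77 ± 0.64 and 3.86 ± 0.64.

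Among the perilipins, Plin5, which couples droplets to mitochondria in tissues that burn fat, rose in all 4 diet comparisons. Its standard diet livers at baseline read 5.35, 4.86, 4.64 and 4.67 and its MCD livers 5.73, 5.82, 5.36 and 6.05. The groups came close to each other but did not overlap, and the change was 0.86 ± 0.25 (adjusted p = 0.013). After hepatectomy the standard diet livers read 3.88, 5.11, 4.35 and 4.91 and the MCD livers 5.79, 5.92, 6.20 and 5.75, a change of 1.35 ± 0.25 (adjusted p = 0.00075). Without both livers that stand apart the change was 1.12 ± 0.24. In the treated livers it was 0.77 ± 0.25 at baseline (adjusted p = 0.038) and 1.62 ± 0.25 after hepatectomy (adjusted p = 0.00015). The former call was lost on leaving out any of 5 of the 8 livers (largest adjusted p = 0.11) and under 4 other settings.

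Plin4, a perilipin best known from adipocytes, rose on the MCD diet after hepatectomy. The standard diet livers read -0.20, 1.21, 0.83 and 1.91 and the MCD livers 3.11, 2.72, 4.55 and 4.32, a change of 2.74 ± 0.63 (6.67-fold, adjusted p = 0.0051). Without both livers that stand apart it was 2.36 ± 0.68 (adjusted p = 0.018). With the agonist the standard diet livers read -0.34, 0.25, -0.28 and -0.14 and the MCD livers 2.73, 3.92, 2.39 and 4.41, a change of 3.49 ± 0.63 (11.2-fold, adjusted p = 0.00071). At baseline the MCD livers overlapped with the standard diet livers, and the changes of 1.08 ± 0.63 and, with the agonist, 1.78 ± 0.63 did not pass (adjusted p = 0.21 and 0.055). Whether the change differs before and after hepatectomy was not tested. Plin2, the perilipin that coats most hepatocyte droplets, was bright, between 5.53 and 8.59, and did not pass in any comparison. Its change at baseline was 0.00 (95% interval -0.78 to 0.78), and after hepatectomy 1.03 (0.25 to 1.81, adjusted p = 0.078). Plin3, which moves between cytosol and droplets, rose at baseline by 0.81 ± 0.29 (adjusted p = 0.040), a call lost on leaving out any of 6 of the 8 livers (largest adjusted p = 0.20), and also with no filter or with only the compared groups.

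**Figure D1:**
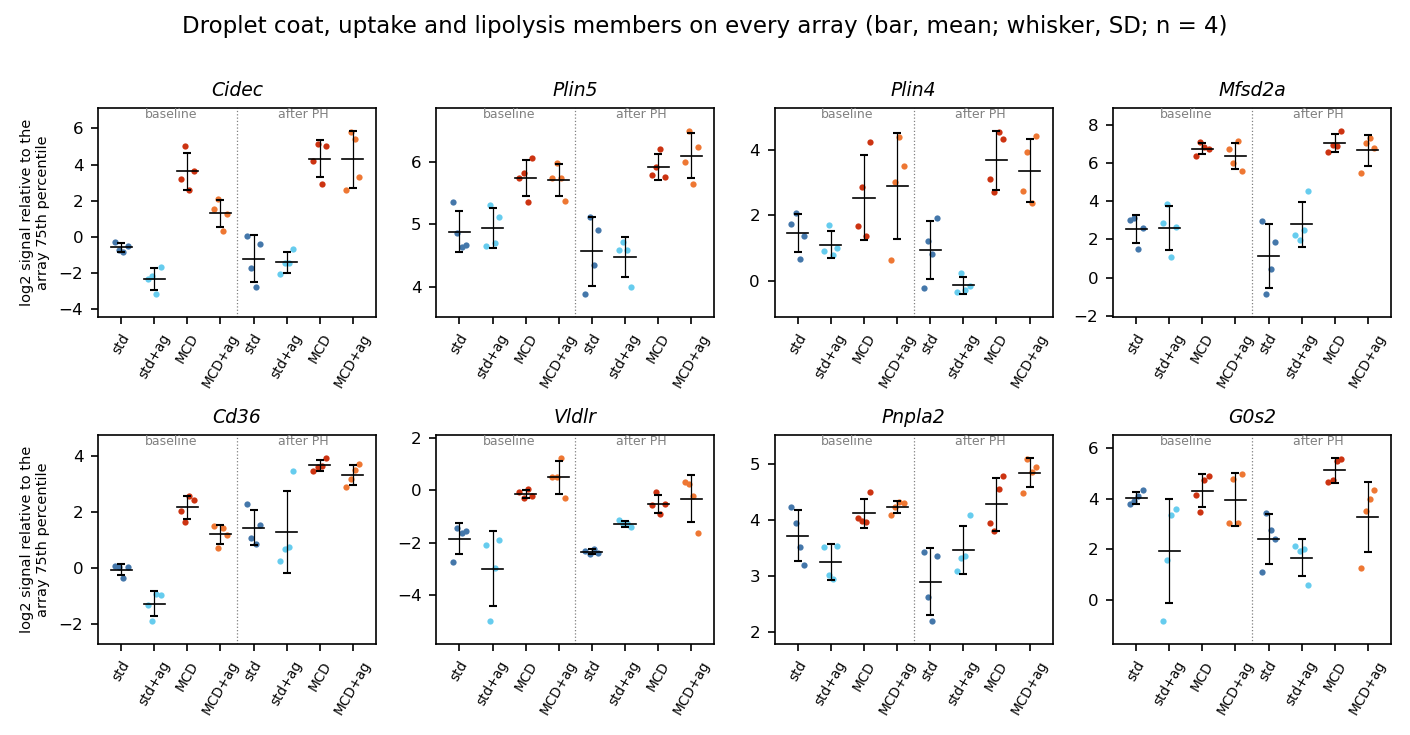
Log2 signal relative to the array 75th percentile (y axis) of 8 members on each of the 32 arrays, by group (x axis: std, standard diet; MCD, MCD diet; ag, agonist; PH, hepatectomy). Points are livers, bars the mean of 4 and whiskers the SD; for Cidec and Mfsd2a every MCD liver lies above every standard diet liver of the same set and treatment.

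Cideb, which serves lipoprotein loading in hepatocytes, fell on the MCD diet at baseline by 0.83 on the log2 scale (SE 0.27, adjusted p = 0.021), with no call in the other diet comparisons. That call was lost without standard diet liver 1, standard diet liver 2 or MCD liver 4 (-0.78, -0.73 and -0.70), and under 3 other scalings or corrections. Fitm1, an endoplasmic reticulum protein of droplet formation, fell after hepatectomy by 2.39 (SE 0.56, adjusted p = 0.0054). Its standard diet livers read -0.64, 2.27, 1.29 and 1.72, the lowest being the liver that stands apart, and without both such livers the change was -2.99 ± 0.37. Fitm2 did not pass on its brightest probe, while a dimmer probe rose with the diet in 3 of 4 comparisons (1.14 ± 0.29, 0.94 ± 0.29 and 1.47 ± 0.29). Both probes were well above background on all 32 arrays, and the gene's direction is uncertain. Bscl2, which encodes the droplet assembly protein seipin, did not pass in any comparison.

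Of the uptake genes, Cd36, which encodes a membrane receptor for long-chain fatty acids on hepatocytes, endothelium and macrophages, rose in all 4 diet comparisons. On probe A_51_P375146 (chr5:17288600-17288659, mm9) the standard diet livers at baseline read 0.07, 0.03, -0.35 and 0.04 and the MCD livers 2.04, 1.64, 2.57 and 2.41. The treated livers read -1.31, -1.90, -0.92 and -0.95 on standard diet and 1.49, 0.73, 1.43 and 1.18 on MCD diet. The groups did not overlap, and the changes were 2.21 ± 0.43 (adjusted p = 0.00048) and 2.48 ± 0.43 (adjusted p = 0.00023). After hepatectomy the standard diet livers read 2.28, 1.07, 0.87 and 1.54 and the MCD livers 3.47, 3.60, 3.65 and 3.92, a change of 2.22 ± 0.43. In the treated livers after hepatectomy, standard diet gave 0.26, 0.69, 0.76 and 3.45 and MCD diet 2.89, 3.16, 3.50 and 3.70. Liver 4, which stands apart, alone reached the MCD range. The change was 2.02 ± 0.43 with it, and 2.74 ± 0.27 without both livers that stand apart.

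Macrophages hold Cd36 too, and in bulk liver more cells of a type and more RNA per cell cannot be told apart. At baseline 7 of 9 recruited macrophage markers and 3 of 5 tested Kupffer cell markers rose with the diet, among them, with the smallest adjusted p, Clec7a (3.94 ± 0.65), Trem2 (4.62 ± 0.82) and Itgax (2.90 ± 0.57). With the agonist at baseline, where Cd36 rose by 2.48 ± 0.43, 1 recruited macrophage marker rose, 1 fell and 7 did not pass, and 3 of 5 Kupffer cell markers fell. After hepatectomy 0 of 9 and 0 of 5 passed with the diet, without or with the agonist. The median change of the 9 was 0.60 without and -0.24 with the agonist, beside -0.04 and 0.00 over all genes. The standard diet groups there include the livers that stand apart. The part of macrophages in the change of Cd36 was not tested.

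Vldlr, the receptor that binds triglyceride-rich lipoproteins, rose with the diet in 3 of 4 comparisons. On probe A_55_P2030524 (chr19:27324050-27324109, mm9) the standard diet livers at baseline read -2.73, -1.44, -1.64 and -1.56 and the MCD livers -0.06, -0.30, 0.06 and -0.21, a change of 1.72 ± 0.46 (adjusted p = 0.0068). With the agonist the standard diet livers read -2.08, -5.00, -2.97 and -1.90, with 3 of 4 well above background, and the MCD livers 0.52, 0.52, 1.23 and -0.29. That change was 3.48 ± 0.46 (11.2-fold, adjusted p = 8.7e-06), and 2.81 without standard diet liver 2, the array not well above background. The call held in both cases, and the interaction of diet and agonist did not pass (1.76 ± 0.65, adjusted p = 0.074). After hepatectomy the standard diet livers lay between -2.42 and -2.22 and the MCD livers between -0.90 and -0.05, a change of 1.83 ± 0.46. With the agonist after hepatectomy the change of 0.95 ± 0.46 did not pass (adjusted p = 0.21). A second, dimmer probe of Vldlr passed only after hepatectomy without agonist among the diet comparisons (2.06 ± 0.51). It was well above background there on 1 of 4 standard diet arrays. Only groups on MCD diet had it well above background on 4 of 4 arrays. It entered the tests through those groups alone and lends no support to the rise.

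The stretches upstream of the start sites of Cidec, Mfsd2a, Cd36 and Vldlr are shown because these genes rose together on the MCD diet. They are the 250 bases before a start site as RefSeq gives it on GRCm38.p6, written 5′ to 3′ on the strand of the gene, with capitals for TGATGNAA or CCAAT on either strand.
Cidec, chr6:113435761-113436010, minus strand: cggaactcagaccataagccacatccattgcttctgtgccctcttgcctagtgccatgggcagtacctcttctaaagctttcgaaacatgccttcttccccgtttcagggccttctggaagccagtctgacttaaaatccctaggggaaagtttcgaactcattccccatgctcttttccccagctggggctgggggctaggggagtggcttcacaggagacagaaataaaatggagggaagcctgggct
Mfsd2a, chr4:122961189-122961438, minus strand: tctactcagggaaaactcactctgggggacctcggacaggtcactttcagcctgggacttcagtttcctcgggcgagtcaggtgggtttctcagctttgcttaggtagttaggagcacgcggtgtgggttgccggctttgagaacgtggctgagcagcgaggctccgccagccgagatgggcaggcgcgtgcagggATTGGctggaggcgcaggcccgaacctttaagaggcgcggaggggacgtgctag
Cd36, chr5:17835897-17836146, minus strand: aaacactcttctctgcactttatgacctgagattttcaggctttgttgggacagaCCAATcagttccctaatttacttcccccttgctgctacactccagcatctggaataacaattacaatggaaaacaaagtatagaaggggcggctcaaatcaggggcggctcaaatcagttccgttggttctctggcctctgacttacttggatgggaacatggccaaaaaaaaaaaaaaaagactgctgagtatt
Vldlr, chr19:27216770-27217019, plus strand: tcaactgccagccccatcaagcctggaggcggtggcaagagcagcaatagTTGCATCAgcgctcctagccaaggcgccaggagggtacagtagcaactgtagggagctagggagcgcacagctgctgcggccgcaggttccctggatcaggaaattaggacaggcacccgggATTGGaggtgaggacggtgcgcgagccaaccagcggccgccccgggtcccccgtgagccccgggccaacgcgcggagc
A set of 6 motifs, picked after the values had been seen, were searched on both strands in 36 such stretches of 26 members and in all 32851 in the table. TGATGNAA, the composite element of C/EBP and ATF4 factors, occurs in 1 of the 36, that of Vldlr shown above, starting 200 bases before the start site, and in 3.45% of all. CCAAT, the box that NF-Y binds, occurs in 15 of the 36 and in 33.8% of all. The E-box CACGTG occurs in 2 (Mgll and Slc27a1; 6.02% of all), and TATAAA in 3 (Cav1, Cideb and Fabp1; 12.4% of all). The perfect direct repeat with 1 base between its copies (DR1) that PPAR factors bind, and TGACGTCA, the cAMP response element, occur in 0 of the 36, beside 0.0335% and 1.55% of all. A match is a run of letters and says nothing of binding.

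**Figure D2:**
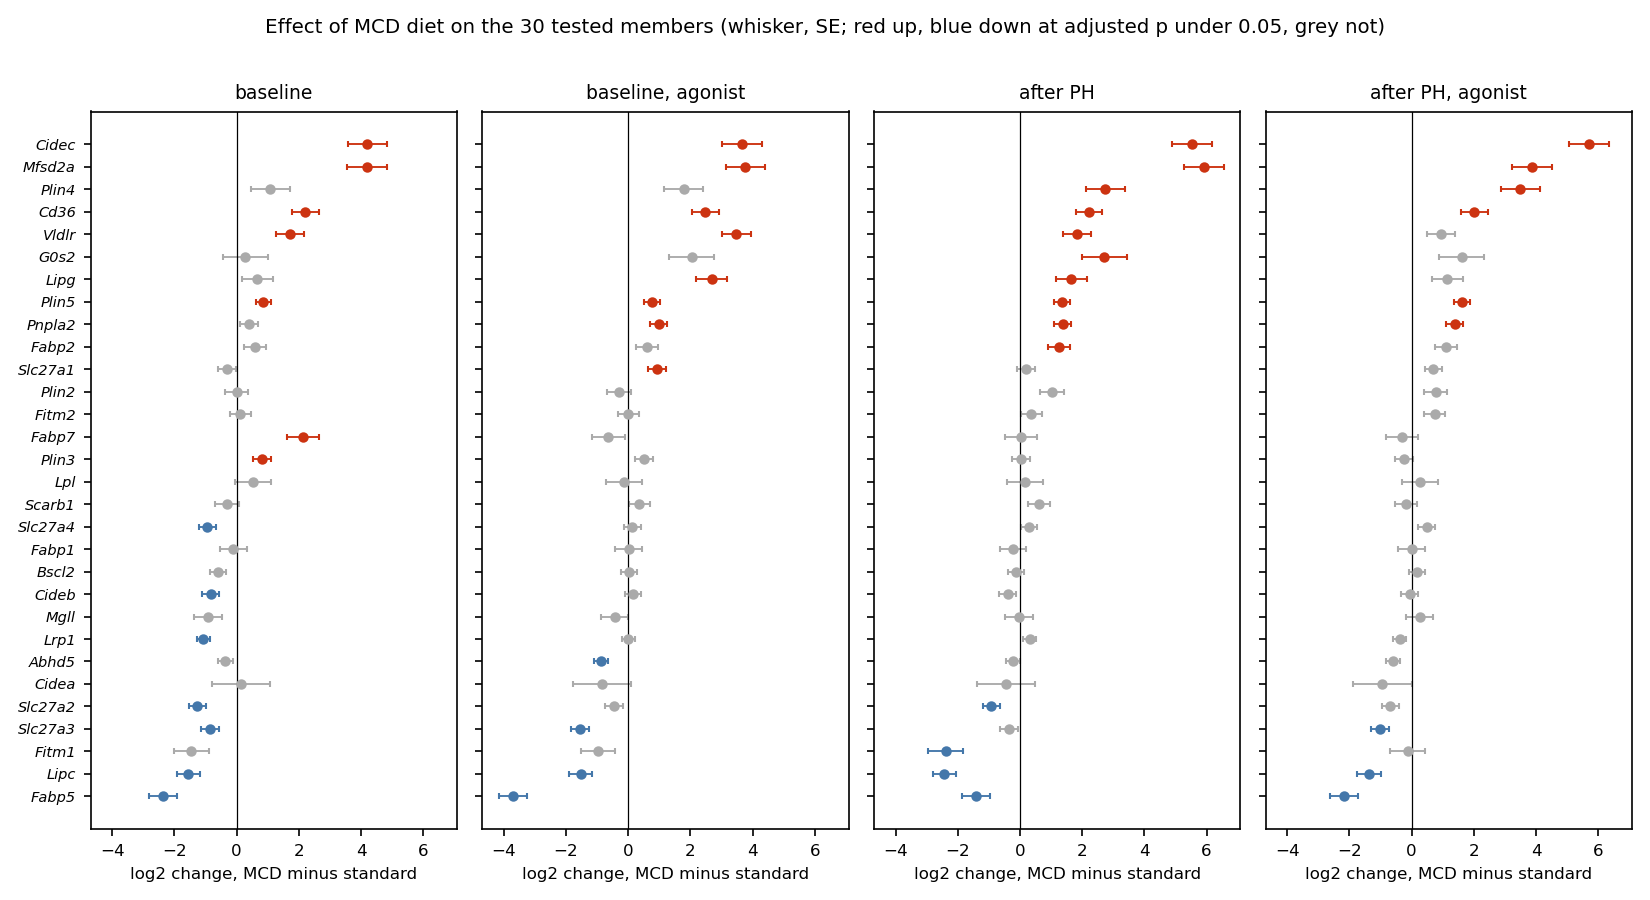
Log2 change on MCD diet against standard diet (x axis) of the 30 tested members (y axis), at baseline and after hepatectomy (PH), without and with agonist. Points are limma estimates and whiskers their SE; Cidec, Mfsd2a, Cd36 and Plin5 are red (rose) and Fabp5 and Lipc blue (fell) in all 4 panels.

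The fatty acid binding proteins went different ways. Fabp5, the epidermal form, also expressed in macrophages, fell in all 4 diet comparisons. The standard diet livers at baseline read 4.78, 6.51, 5.88 and 4.63 and the MCD livers 2.96, 3.02, 2.89 and 3.49, a change of -2.36 ± 0.45 (adjusted p = 0.00044). With the agonist they read 7.62, 6.01, 6.06 and 7.37 against 3.46, 3.56, 2.01 and 3.19, a change of -3.71 ± 0.45 (adjusted p = 3.1e-06). Every MCD liver at baseline lay below every standard diet liver. After hepatectomy the values were 5.06, 6.25, 5.67 and 5.80 against 3.60, 4.41, 4.41 and 4.70, a change of -1.42 ± 0.45 (adjusted p = 0.040). That call was lost on leaving out any of 6 of the 8 livers (largest adjusted p = 0.13). With the agonist after hepatectomy the change was -2.18 ± 0.45 (adjusted p = 0.0026). Fabp1, the main form of hepatocytes, lay between 6.38 and 9.97 and did not pass in any comparison, with a diet change of -0.11 at baseline (95% interval -0.98 to 0.77). Fabp2, the intestinal form, rose after hepatectomy by 1.25 ± 0.36 (adjusted p = 0.025), a call lost without any of 4 livers (largest adjusted p = 0.092). Without both livers that stand apart its change was 0.99 ± 0.34 (adjusted p = 0.049).

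Of the FATP transporters, Slc27a2, the main one of liver and also an acyl-CoA synthetase of very long chains, fell at baseline. The standard diet livers read 8.0, 8.80, 8.76 and 8.46 and the MCD livers 7.16, 7.01, 7.31 and 7.49, a change of -1.26 ± 0.28 (adjusted p = 0.0015). After hepatectomy it fell by 0.92 (SE 0.28, adjusted p = 0.029), a call lost on leaving out any of 6 of the 8 livers (largest adjusted p = 0.12) and under 4 other settings. Without both livers that stand apart the change was -1.23 ± 0.24 (adjusted p = 0.00070). With the agonist after hepatectomy Slc27a2 did not pass with them, and fell without both (-0.92 ± 0.24, adjusted p = 0.011). Slc27a3 fell in 3 of the 4: by 0.86 (SE 0.29) at baseline, by 1.54 (SE 0.29) at baseline with agonist and by 1.03 (SE 0.29) after hepatectomy with agonist. In the second of these the standard diet livers read -1.04, -0.92, -1.17 and -0.59 and the MCD livers -2.52, -2.41, -2.88 and -2.06, with no overlap. The first and the last were each lost on leaving out any of 6 of the 8 livers (largest adjusted p = 0.14 and 0.080). Slc27a4 fell at baseline (-0.94 ± 0.27, adjusted p = 0.012), and not under median scaling. Slc27a1 rose at baseline with agonist (0.93 ± 0.28, adjusted p = 0.021), a call lost without standard diet liver 2 or 4 or MCD liver 3 of those groups (0.85, 0.88 and 0.57). It was also lost under median scaling and with only the compared groups. At baseline without agonist the means of all 4 transporters were lower on MCD diet, that of Slc27a1 without a call (0.44 against 0.75). In each of the other diet comparisons they held no common direction.

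Lrp1, a receptor of lipoprotein remnants, fell at baseline. The standard diet livers read 6.0, 5.93, 5.55 and 5.94 and the MCD livers 5.01, 4.82, 4.62 and 4.70, a change of -1.07 ± 0.21 (adjusted p = 0.00056). With the agonist the change was 0.00 ± 0.21, and the means of both groups were 5.39. The mean over its 3 probes did not pass at baseline, and a dim probe of Lrp1 rose with the diet at baseline with agonist and after hepatectomy (1.69 ± 0.40 and 1.35 ± 0.40). In each of these the dim probe was well above background on 2 of 4 standard diet arrays. Scarb1, the receptor for high density lipoprotein, did not pass in any comparison; 1 standard diet array was left out for it as an outlier spot, so n = 3 there.

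**Figure D3:**
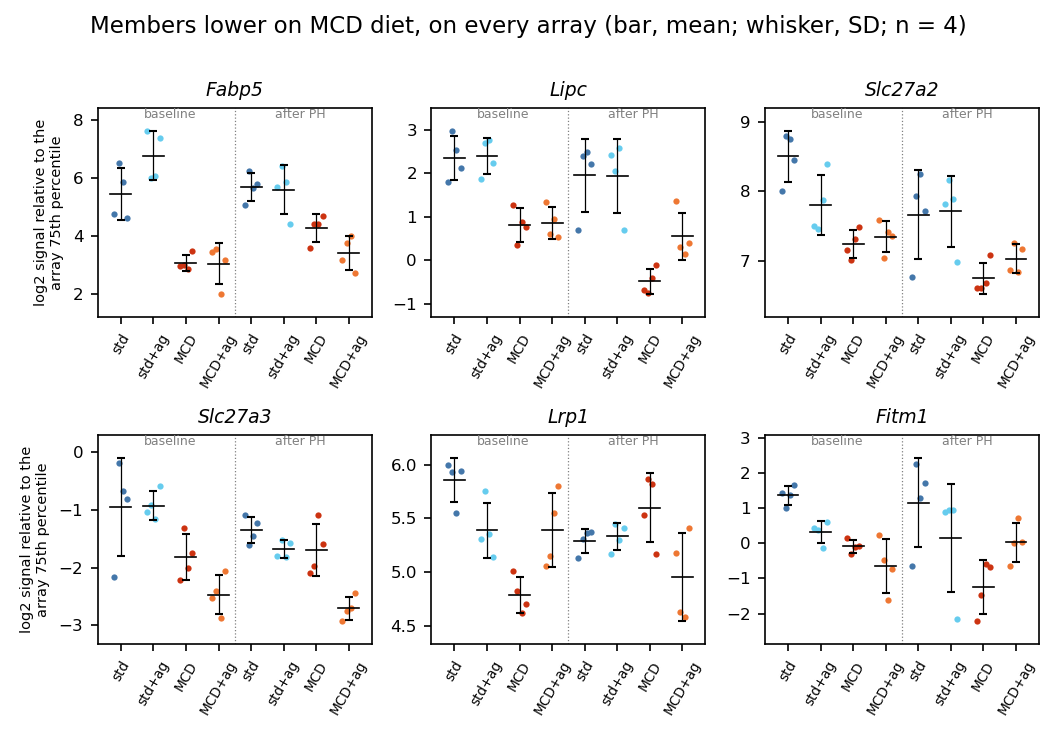
Log2 signal relative to the array 75th percentile (y axis) of 6 members on each array, by group (x axis as labelled: std, standard diet; MCD, MCD diet; ag, agonist; PH, hepatectomy). Bars are means of 4 livers and whiskers the SD; every MCD liver lies below every standard diet liver at baseline for Fabp5 and Lipc, without and with agonist.

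Lipases of the vessel wall and cell surface act on lipoproteins. Lipc encodes hepatic lipase, made by hepatocytes, and fell in all 4 diet comparisons. Its standard diet livers at baseline read 1.80, 2.97, 2.53 and 2.12 and its MCD livers 1.27, 0.34, 0.87 and 0.77, a change of -1.55 ± 0.38 (adjusted p = 0.0040). After hepatectomy they read 0.70, 2.39, 2.49 and 2.22 against -0.67, -0.75, -0.41 and -0.10. Standard diet liver 1, which stands apart, was the lowest of its group. The change was -2.43 ± 0.38 with it (adjusted p = 0.00011), and -2.85 ± 0.31 without both livers that stand apart. With the agonist the changes were -1.53 ± 0.38 at baseline and -1.38 ± 0.38 after hepatectomy, and the latter call was lost on leaving out any of 5 livers (largest adjusted p = 0.093).

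Lipg encodes endothelial lipase. It was not well above background on any of the 16 standard diet arrays, so the standard diet gives only a bound, taken from the lowest signal among probes well above background. Lipg entered the tests only through the MCD diet at baseline, the single group with it well above background on 4 of 4 arrays, so its rises are a description and lend no support to the count of members that rose. On MCD diet 4, 3, 3 and 3 of 4 arrays were well above background, at baseline, at baseline with agonist, after hepatectomy and after hepatectomy with agonist. The MCD livers at baseline with agonist read -3.55, -2.70, -3.49 and -3.82, at least 2.80-fold above the standard diet (adjusted p = 0.00053). After hepatectomy the bound was at least 1.63-fold (adjusted p = 0.031), a call lost on leaving out any of 6 livers (largest adjusted p = 0.11). Lpl, the lipase that takes fatty acids from circulating triglyceride, did not pass in any diet comparison.

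Of the lipolysis genes Pnpla2, the first lipase of droplet triglyceride, rose in 3 diet comparisons. After hepatectomy its standard diet livers read 3.43, 2.62, 2.19 and 3.35 and its MCD livers 3.95, 3.81, 4.56 and 4.78, a change of 1.37 ± 0.28 (adjusted p = 0.0018). With the agonist they read 3.09, 3.32, 3.35 and 4.08 against 4.48, 5.09, 4.86 and 4.94, a change of 1.38 ± 0.28 (adjusted p = 0.0021). The groups did not overlap in either. At baseline the change was 0.40 ± 0.28 without the agonist and did not pass, and 0.98 ± 0.28 with it (adjusted p = 0.016), a call lost without standard diet liver 2 or 3 of that comparison (0.90 and 0.88). G0s2, the inhibitor of the same lipase, rose after hepatectomy (2.71 ± 0.72, adjusted p = 0.013). Without both livers that stand apart that change was 2.27 ± 0.74 (adjusted p = 0.039). At baseline with agonist its 2.04 ± 0.72 did not pass (adjusted p = 0.052). Abhd5, the activator, fell at baseline with agonist (-0.87 ± 0.23, adjusted p = 0.0098), a call lost without standard diet liver 4 of that comparison (-0.65). Mgll, which completes the hydrolysis of monoacylglycerol, did not pass on its brightest probe. Its dimmest probe, well above background on 14 of 32 arrays, rose with the diet after hepatectomy (1.92 ± 0.50, and 2.97 ± 0.50 with agonist). That probe entered the tests only through the MCD diet at baseline. After hepatectomy it was well above background on 1 of 4 standard diet arrays, and on 0 of 4 with agonist. Neither size is therefore a measured fold, and both rises are a description. Another probe fell at baseline (-1.29 ± 0.46), where the dimmest did not pass (1.12 ± 0.50), and the gene's direction is uncertain.

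Normexp background correction, which starts from the raw spot and background signals, ended further diet calls. Under it Plin5 changed by 0.52 and Lipc by -0.67 at baseline, Lipg by 0.53 and Pnpla2 by 0.80 at baseline with agonist, and Fabp2 by 1.18 and Lipg by 0.55 after hepatectomy (adjusted p = 0.19, 0.17, 0.13, 0.13, 0.070 and 0.11). Fitting only the compared groups ended the call of Cd36 after hepatectomy with agonist (adjusted p = 0.068). None of the calls of Cidec or Mfsd2a in the diet comparisons was lost under any of the 7 other settings run on these values or on leaving out any 1 liver.

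The agonist comparison asks what the drug changes on each diet. On standard diet at baseline 1 member rose and 1 fell, beside 6.52% of all genes called, and on MCD diet 0 rose and 1 fell, beside 13.3%. Under median scaling 2 rose and 0 fell on standard diet. On standard diet 0 members passed without treated liver 1 or 3, 1 without untreated liver 1, 3 or 4, and 4 without treated liver 4. On MCD diet 0 passed without untreated liver 2 or treated liver 3, 2 without treated liver 1, and 5 without treated liver 2. The member that fell on MCD diet was Cidec, from between 2.60 and 5.03 to 1.56, 2.08, 0.32 and 1.28. The groups did not overlap, and the change was -2.32 ± 0.64 (4.98-fold, adjusted p = 0.018). Without MCD liver 2 or without treated MCD liver 3 the call was lost (-1.85 and -1.99). The treated MCD livers still lay above every standard diet liver at baseline. On standard diet the change of Cidec was -1.76 ± 0.64 and did not pass (adjusted p = 0.096). Cd36 was lower with the agonist on every array on both diets, by -1.22 ± 0.43 and -0.96 ± 0.43, and neither passed (adjusted p = 0.081 and 0.13). Both contrasts run between slides.

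Fabp7, a fatty acid binding protein best known from brain and expressed by Kupffer cells in mouse liver, was the member that rose with the agonist on standard diet. At baseline it read -1.77, -0.90, -2.13 and -1.61 on standard diet and 0.59, 0.28, 0.57 and 0.23 with the agonist, a change of 2.02 ± 0.52 (adjusted p = 0.020). That call was lost without standard diet liver 3 or treated liver 1 or 3 (1.85, 1.96 and 1.97). On MCD diet it read 0.65, -0.32, 0.56 and 1.21, above every standard diet liver (2.13 ± 0.52, adjusted p = 0.0036), and -0.94, 0.60, -0.41 and -0.13 with the agonist. The change with the agonist on MCD diet did not pass. The interaction of diet and agonist was -2.76 ± 0.74 (adjusted p = 0.016). Of the Kupffer cell markers, 4 of 5 rose with the agonist on standard diet and 4 of 5 fell with it on MCD diet. A negative interaction was called for 4 of 5, as Vsig4 (-4.04 ± 0.63) and Clec4f (-2.73 ± 0.51). With the diet under agonist 3 of 5 fell, where Fabp7 did not pass. The summed level of the Kupffer list was 5.28 to 6.10 on standard diet, 6.76 to 7.42 with agonist, 6.53 to 8.0 on MCD diet and 5.60 to 6.59 on MCD diet with agonist. Their part in the result was not tested. The fall called on standard diet was that of Lipg, not well above background in either group, and no fold is given.

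In all, 2 members rose and 1 fell in the interaction at baseline, beside 11.1% of all genes, and 5 passed without treated MCD liver 2. Beside Fabp7 they were Lrp1 (1.07 ± 0.30, adjusted p = 0.020) and Slc27a1 (1.24 ± 0.39, adjusted p = 0.039). Scaling to the array median moved the median interaction of all genes from 0.18 to -0.35, and under it neither passed, while the members' split went from 2 up and 1 down to 0 up and 3 down. Relative to the median of all genes, which no constant shift of an array can change, the interactions were 0.89 for Lrp1, 1.06 for Slc27a1 and -2.94 for Fabp7. The call of Lrp1 was lost also with the mean over its probes, and that of Fabp7 with normexp background correction (-1.77, adjusted p = 0.065). The call of Slc27a1 was also lost on leaving out any of 9 of the 16 livers (largest adjusted p = 0.092).

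After hepatectomy the agonist gave 0 calls among the members on either diet, beside 0.00922% of all genes on standard diet and 0.406% on MCD diet, by limma. At an unadjusted p under 0.05, 3 and 5 members passed, and the members' changes ran from -1.07 to 1.68 and from -1.85 to 1.26. The interaction also gave 0 calls (0.00461% of all genes), with 3 members at an unadjusted p under 0.05. Cidec, which fell with the agonist on MCD diet at baseline, changed there by -0.03 (95% interval -1.35 to 1.28). Whether the agonist's change differs before and after hepatectomy was not tested.

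The comparison of hepatectomy with baseline asks how the regrown liver differs. Lpl, made by macrophages and other non-parenchymal cells and little by adult hepatocytes, and Cd36 rose in all 4. On standard diet 3 members rose and 2 fell, beside 13.8% of all genes, and on MCD diet 4 rose and 1 fell (9.46%). With the agonist 3 rose and 0 fell on standard diet (7.30%) and 3 rose and 0 fell on MCD diet (10.0%). Under median scaling the split was 3 up and 0 down on standard diet, as under quantile normalization, and 2 up and 1 down on MCD diet. The number called on standard diet was 2 without baseline liver 3 and 3 without baseline liver 2. On MCD diet it was 2 or 3 without any of 7 of the 8 livers, and on standard diet with agonist 1 without baseline liver 2.

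Lpl lay between 0.02 and 2.64 on all baseline arrays and between 2.21 and 5.57 after hepatectomy. On MCD diet it read 1.92, 1.25, 1.89 and 2.64 before and 4.08, 4.08, 4.27 and 4.13 after. The change was 2.58 ± 0.58 on standard diet, 2.21 ± 0.58 on MCD diet, and with the agonist 2.06 ± 0.58 and 2.46 ± 0.58 (adjusted p = 0.0045, 0.015, 0.031 and 0.0087). The call on MCD diet was lost without baseline liver 2 (1.99). On MCD diet with agonist the change was 1.85 without hepatectomy liver 4 (adjusted p = 0.049), which read 5.28 against 2.33 to 3.31 in the others. The 2 highest Lpl arrays, 5.57 and 5.48, were the livers that stand apart. Without both, the change was 2.05 ± 0.44 on standard diet (adjusted p = 0.0062) and 1.29 ± 0.44 on standard diet with agonist, where it no longer passed (adjusted p = 0.093). That call was also lost without baseline liver 1 or 2 (1.93 for each). A second probe of Lpl passed on standard diet without and with the agonist (2.04 ± 0.66 and 2.30 ± 0.66), and not on MCD diet.

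Cd36 rose after hepatectomy by 1.49 ± 0.43 on both diets, and with the agonist by 2.56 ± 0.43 on standard diet and 2.11 ± 0.43 on MCD diet (adjusted p = 0.021, 0.025, 0.0010 and 0.0032). Normexp background correction ended the call on standard diet (1.08, adjusted p = 0.062) and that of Lpl on MCD diet (1.95, adjusted p = 0.058). Without both livers that stand apart Cd36 rose by 1.21 ± 0.27 on standard diet and by 1.84 ± 0.27 with the agonist. The call on standard diet was lost without hepatectomy liver 1 alone (1.21) or baseline liver 3 alone (1.39). On MCD diet it was lost without any of 4 livers (largest adjusted p = 0.086). On standard diet 8 of 9 recruited macrophage markers and 5 of 5 Kupffer cell markers rose as well. On MCD diet 0 of 9 and 1 of 5 did, and Lpl rose there by 2.21 ± 0.58. With the diet at baseline 7 of the 9 and 3 of the 5 rose, beside 26.0% of all genes called. Both counts on standard diet include the liver that stands apart, and none was made without it. What macrophages contribute to the rises of Cd36 and Lpl after hepatectomy was not tested.

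The other calls after hepatectomy were each made on 1 diet or treatment. Fabp7 rose on standard diet (2.52 ± 0.52, adjusted p = 0.0023; 1.91 ± 0.40 without both livers that stand apart). Cidec rose on MCD diet with agonist, from 1.56, 2.08, 0.32 and 1.28 to 2.59, 5.81, 5.43 and 3.31 (2.97 ± 0.64, adjusted p = 0.0049). Vldlr rose on standard diet with agonist (1.71 ± 0.46, adjusted p = 0.023), a call lost without baseline liver 2 (1.04) or hepatectomy liver 1 or 3 (1.67 and 1.70), with normexp (0.70), with the mean over probes (0.83) and with only the compared groups. The second Vldlr probe changed there by -0.05 ± 0.51, and on standard diet without agonist it fell (-1.52 ± 0.51). In the latter comparison that probe was well above background on 2 of 4 arrays at baseline and 1 of 4 after hepatectomy. Lrp1 (0.81 ± 0.21) and Slc27a4 (0.87 ± 0.27) rose and Lipc fell (-1.29 ± 0.38) on MCD diet. Of these, Slc27a4 was lost without any of 7 livers, Lipc without any of 6, and Lrp1 without hepatectomy liver 2 (0.72). The call of Lrp1 was lost also with normexp (0.72), median scaling (0.72) and the mean over probes (0.32, adjusted p = 0.56), and its other probes did not pass (-0.36 ± 0.68 and 0.52 ± 0.40). That of Slc27a4 was lost under 4 other settings and that of Lipc with normexp. Pnpla2 (-0.82 ± 0.28) and Slc27a2 (-0.84 ± 0.28) fell on standard diet, each lost without any of 5 livers (largest adjusted p = 0.17 and 0.22). Without both livers that stand apart Mfsd2a fell on standard diet (-2.06 ± 0.56, adjusted p = 0.024), where with them it did not pass (-1.44 ± 0.64), and Slc27a2 did not pass (-0.54 ± 0.24, adjusted p = 0.16).

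**Figure D4:**
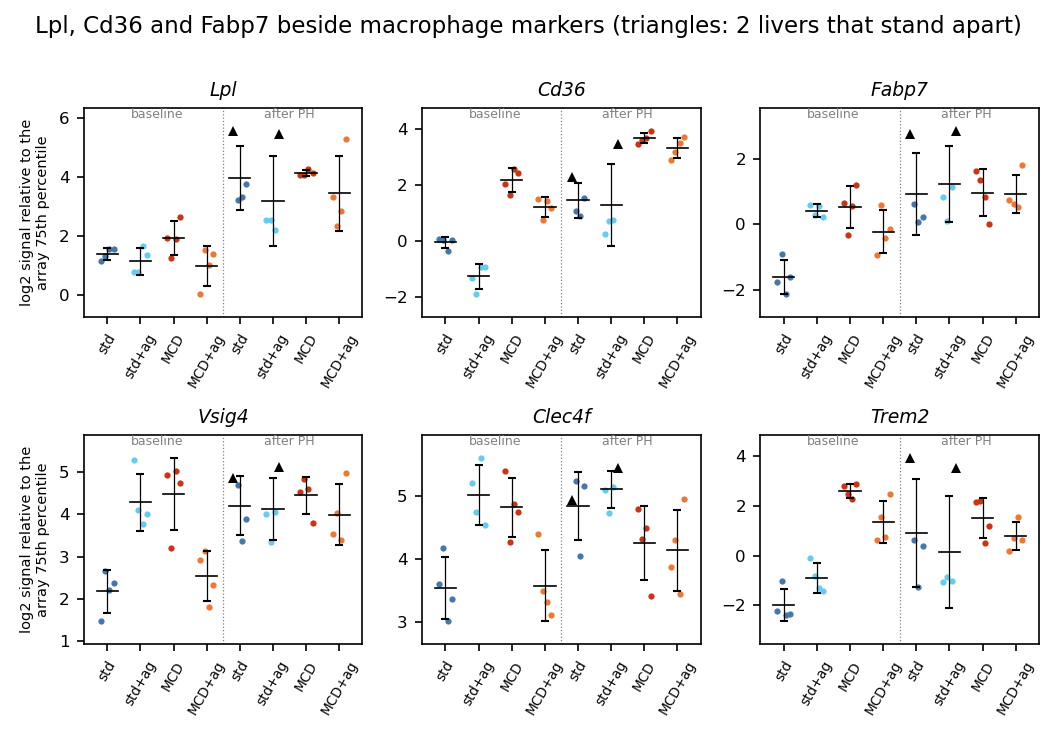
Log2 signal relative to the array 75th percentile (y axis) of Lpl, Cd36 and Fabp7 (top) and of the macrophage markers Vsig4, Clec4f and Trem2 (bottom) on each array, by group (x axis: std, standard diet; MCD, MCD diet; ag, agonist; PH, hepatectomy). Bars are means of 4 livers, whiskers the SD, and triangles the 2 livers that stand apart, which carry the highest Lpl, Fabp7 and Trem2 of all arrays.

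Of 33 further genes of the same pathways, 31 were tested. With the diet at baseline 3 rose and 6 fell (median -0.26), with agonist 2 rose and 4 fell (0.19), after hepatectomy 3 rose and 5 fell (-0.12), and after hepatectomy with agonist 1 rose and 4 fell (0.03). Beside these stand 26.0%, 15.2%, 11.5% and 8.23% of all genes called in the 4 comparisons, so the genes named next are a description of single genes and nothing is read from the counts. Aadac, a lipase of the endoplasmic reticulum, fell in all 4, by 1.03, 1.10, 1.43 and 1.01 (SE 0.29 each). Slc27a5, the liver transporter that also activates bile acids, fell in 3 (-1.51 ± 0.32, -0.95 ± 0.32 and -1.14 ± 0.32). Lmf1, which matures lipases such as those of Lpl and Lipc, fell at baseline (-1.80 ± 0.32) and after hepatectomy without and with agonist (-1.45 ± 0.32 and -1.06 ± 0.32). Mttp, which loads lipid onto apolipoprotein B, fell at baseline without and with agonist (-0.79 ± 0.21 and -0.68 ± 0.21). Acsl4, an acyl-CoA synthetase that prefers arachidonic acid, rose in the same pair of comparisons (1.33 ± 0.31 and 1.04 ± 0.31). Angptl4, a secreted inhibitor of lipoprotein lipase, rose after hepatectomy (1.86 ± 0.36).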

How the data were processed

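One-colour (Cy3) Agilent arrays of liver RNA were read with Feature Extraction 10.7.3.1, per the file headers. The deposited scanner files give intensity per spot, with gProcessedSignal already background-corrected by that software. The deposited series table holds log2 values whose normalization is not given in the sources used here; limma is named in the submitters' processing notes. Its scale is log2 by match to the scanner files, with column medians of 6.53 to 6.55 at baseline and 7.05 to 7.06 after hepatectomy, and its centring stays unknown. Outlier spots were left out, repeated spots averaged, and log2 signals scaled to the 75th percentile of each array. A probe was tested if some group had it well above background on each of its 4 arrays (30118), with the brightest for each gene. limma 3.58.1 in R 4.3.3 gave 14 contrasts from 1 fit. P-values measure the spread between livers. The fit was tested on simulated data. Members and lists were chosen with earlier results of these data known. All members are named. Values of single livers are given for the 14 with the smallest adjusted p, in some or all groups, and for Lpl in part. Replicate numbers did not pair livers.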

Additional observations from a re-analysis of the deposited data

Results flagged for a closer look

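In 239 sets of 4 livers, 20 had 1 liver far from the other three by Dixon's test, where chance gives about 1 in 20. After hepatectomy on standard diet with agonist, liver 4 stood apart for Cd36 (3.45, others 0.26 to 0.76), Lpl (5.48, others 2.21 to 2.53), Cideb (7.34), Plin2 (5.53), G0s2 (0.58), Fitm1 (-2.15) and Mgll (3.13). After hepatectomy on standard diet, liver 1 stood apart for Lipc (0.70), Fitm2 (3.04) and Mgll (3.50). These are the 2 livers with high macrophage and cholangiocyte markers; the part of either in these values was not tested.

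The others were single livers. At baseline they were Cd36 in standard diet liver 3 (-0.35), Vldlr in standard diet liver 1 (-2.73), Pnpla2 in MCD liver 4 (4.50), Abhd5 in treated standard diet liver 4 (2.80) and Scarb1 in treated MCD liver 1 (4.04). After hepatectomy they were Fitm2 in MCD liver 1 (3.20), Bscl2 in MCD liver 3 (2.01), Slc27a2 in MCD liver 4 (7.08), Cideb in treated MCD liver 1 (8.21) and Fabp7 in treated MCD liver 4 (1.80).

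The agonist's change differed between diets at baseline, by the interaction term in limma, for Fabp7 (-2.76), Slc27a1 (1.24) and Lrp1 (1.07). Each of these calls depends on the processing. That of Fabp7 was lost with normexp background correction. Those of Slc27a1 and Lrp1 were lost under median scaling and with only the compared groups. The call of Slc27a1 was also lost on leaving out any of 9 of the 16 livers.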

How the results depend on the processing

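The fits of the deposited table gave counts only, and the direction of single calls was not compared in them. Under the other settings run, none of the 71 called member results reversed. Of these, 52 kept their call with normexp background correction, 58 with median scaling, 66 with quantile normalization, 60 with no filter, 67 with the mean over probes and 53 with only the compared groups. With normexp the agonist gave 4 calls on standard and 5 on MCD diet at baseline and 1 on MCD diet after hepatectomy, and hepatectomy 1 on MCD diet, 8 on standard diet with agonist and 9 on MCD diet with agonist. Median scaling gave 3 for the agonist on MCD diet at baseline and 3 for hepatectomy on either diet. Quantile normalization and no filter each gave 1 for the agonist on standard diet and 3 for hepatectomy on standard diet, and only the compared groups gave 3 for the latter. The cause was not tested. The split of the agonist calls on standard diet at baseline, 1 up and 1 down, was 2 up and 0 down under median scaling. With the replicate number as a block all 71 kept their call, and the agonist on MCD diet at baseline gave 2; the paired numbers correlated at -0.21 to 0.44, with no comparison having all 4 pairs over 0.1.

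From the deposited table as labelled, the diet gave 4, 7, 0 and 0 calls and the agonist 12, 10, 12 and 12. With each column at the array it matches best the agonist gave 4 on standard and 7 on MCD diet at baseline. Leaving out each liver in turn gave 0 to 4 calls for the agonist on standard diet and 0 to 5 on MCD diet at baseline, 2 to 5 for hepatectomy on standard diet, 2 to 4 on MCD diet, 1 to 3 on standard diet with agonist, and 2 to 5 for the interaction at baseline. The 4 diet counts ranged over 11 to 13, 10 to 13, 10 to 13 and 7 to 9. Leaving out both livers that stand apart was chosen after seeing the data, and 29 of 31 calls were kept. Dim probes such as those of Lipg and Cidea lie near background, where background correction weighs most.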
